A study of Mus musculus with 59 samples.

Results

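Metallothioneins are small, cysteine-rich proteins whose thiol groups hold zinc and copper. The genes described here are Mt1, Mt2 and Mt3, 3 of the 24346 gene symbols in the table. They were chosen by name, with earlier results of these data known. Their transcripts were measured by RNA sequencing in male mice. The tissue was the VTA (ventral tegmental area), a midbrain region whose dopamine neurons project to striatum and cortex. The 59 libraries form 8 groups. Cocaine, which blocks the dopamine transporter, or saline was given as acute injections in the home cage (5 cocaine and 6 saline libraries), as chronic injections in the home cage (6 and 6), in a conditioning procedure (6 and 6), or by intravenous self-administration (15 and 9). Strain, age, dose, number of doses, kind of conditioning and time to tissue collection are not in the labels used here, and no group is described as carrying an engineered allele. No label states that each library is a different animal. A p-value here therefore reflects the spread among the libraries, part of which may be technical.

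Mt1 and Mt2 are the broadly expressed, inducible members of the family. Zinc induces them through the metal-sensing factor Mtf1, which binds metal response elements in their promoters, and glucocorticoid hormone induces them through its receptor. In brain both are made mostly by astrocytes and other non-neuronal cells. Mt3 is the brain-enriched member, first known as growth inhibitory factor, is found in neurons as well as astrocytes, and responds less to metals and glucocorticoid.

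The coding sequences show what the 3 genes share, and how far their sequences differ. They are given 5′ to 3′ from the start codon to the last codon before the stop, as annotated by GENCODE M21 on GRCm38 (mm10 in the submitters' processing notes), with every cysteine codon (TGC or TGT) in capitals.
Mt1: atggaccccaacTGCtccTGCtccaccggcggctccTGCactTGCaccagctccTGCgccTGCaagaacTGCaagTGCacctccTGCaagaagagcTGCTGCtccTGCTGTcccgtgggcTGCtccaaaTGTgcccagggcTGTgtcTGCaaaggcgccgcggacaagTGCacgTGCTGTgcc
Mt2: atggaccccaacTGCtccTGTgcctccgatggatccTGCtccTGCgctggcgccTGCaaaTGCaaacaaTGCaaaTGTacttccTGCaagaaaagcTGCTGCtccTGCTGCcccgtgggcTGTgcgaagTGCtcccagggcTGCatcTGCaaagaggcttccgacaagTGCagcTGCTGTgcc
Mt3: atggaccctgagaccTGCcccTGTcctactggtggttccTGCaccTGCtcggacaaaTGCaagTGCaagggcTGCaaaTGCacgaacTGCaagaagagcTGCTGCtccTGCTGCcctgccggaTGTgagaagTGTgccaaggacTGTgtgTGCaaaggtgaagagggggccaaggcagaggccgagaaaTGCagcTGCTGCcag
Each holds 20 cysteine codons, among 61 codons in Mt1 and in Mt2 and 68 in Mt3. The added codons of Mt3 stand near the start and towards the end of its reading frame. Mt1 and Mt2 had 145 of 183 bases in common (79.2%). Mt3 shared 65.7% of aligned positions with Mt1 and 67.2% with Mt2, gaps counted as differences. The longest run of identical bases was 20 between Mt1 and Mt2, 27 between Mt1 and Mt3, and 20 between Mt2 and Mt3.

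All 3 genes lie in one cluster on the plus strand of chromosome 8 and have 3 exons each in their first annotated transcript. Mt3 spans chr8:94152607-94154146, Mt2 chr8:94172664-94173568 and Mt1 chr8:94179082-94180327 (GRCm38). Of 36-base windows along their transcripts, 0 of 514 in Mt1 and 0 of 501 in Mt3 occurred in the annotated transcripts of another gene. In Mt2, 252 of 476 windows (52.9%) also belonged to Gm45774, an antisense transcript over Mt2. Whether the counting used strand is not given in the sources used here, so reads of Mt2 and of Gm45774 could not be told apart. Mt4, the family member of stratified epithelia at the other end of the cluster, was listed at 0 in every library except 1 of acute cocaine (0.137 FPKM) and 1 of conditioning saline (0.162 FPKM).

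The levels are FPKM, by definition fragments scaled to transcript length and library total. How the scaling was done here is not given, and Mt2 shares sequence with Gm45774, so ranks and ratios between genes are approximate. All 3 genes were abundant in this tissue. Averaged over the 59 libraries, Mt3 stood at 640.0 FPKM (rank 52 of 24346 symbols), Mt1 at 469 (rank 104) and Mt2 at 292 (rank 229). Together they made up between 0.188% and 0.520% of the FPKM of a library. The dissection was checked with its defining genes: Th, of dopamine synthesis, ran from 124 to 691 FPKM and Slc6a3, the dopamine transporter, from 107 to 608 over all libraries. Ttr, which defines choroid plexus, a tissue rich in metallothionein, stayed between 0 and 3.91 FPKM. Because the tissue is bulk, fewer cells of a type and less RNA per cell cannot be told apart. On the first principal component of all genes (37.9% of the variance) every self-administration library was separated from every other library, so levels set across paradigms may carry differences of handling or batch, which cannot be told apart from the paradigm.

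**Figure D1:**
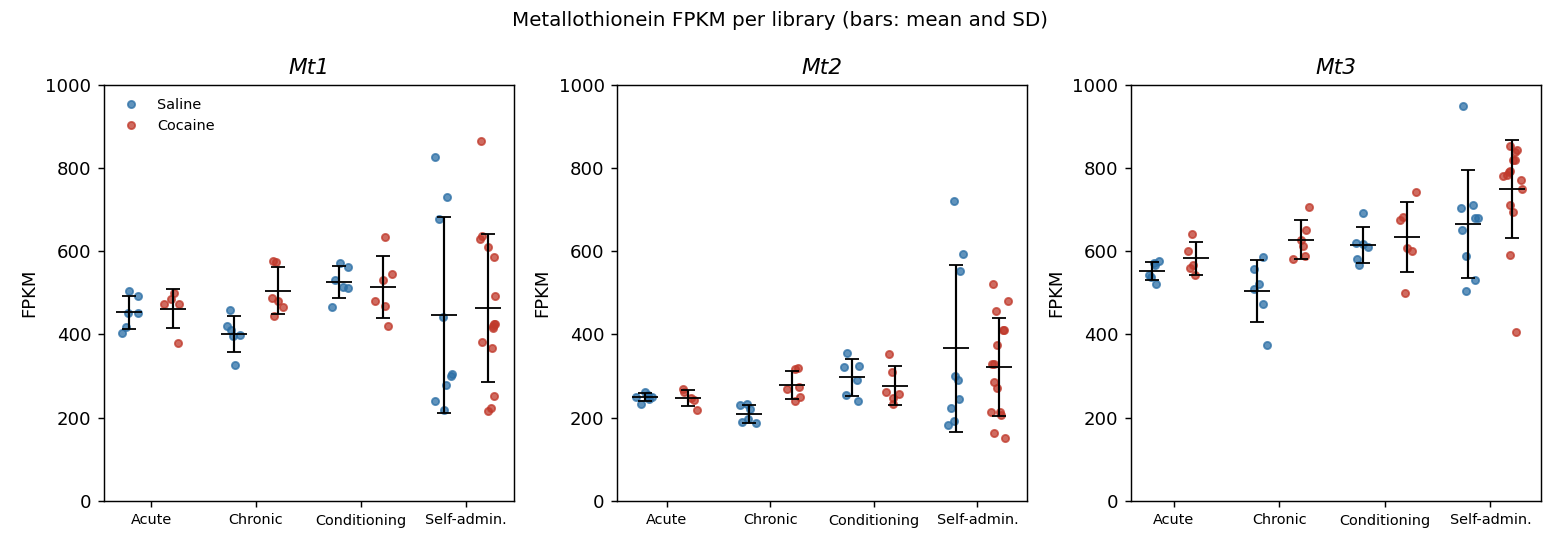
FPKM of Mt1, Mt2 and Mt3 (y axis) in each library (points) by paradigm (x axis), saline in blue and cocaine in red, with bars for the mean and SD of each group. The chronic cocaine mean lies above the chronic saline mean for all 3 genes, the libraries of those groups overlap for Mt1 and Mt3 but not for Mt2, and Mt1 and Mt2 spread most widely in self-administration.

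After chronic injection, Mt1, Mt2 and Mt3 were each at a higher mean level in the cocaine libraries than in the saline libraries, but none passed the test across all genes. Mt2 had the clearest separation. Its lowest, median and highest FPKM in chronic cocaine were 240.0, 271 and 319.9, and in chronic saline 186, 208 and 233. Every cocaine library lay above every saline library, which was true of 45 of 13190 genes (0.341%). The group means were 278 ± 33.5 and 209 ± 20.8 FPKM (SD, n = 6 and 6), a difference of 0.41 ± 0.08 (SE) on the log2(FPKM + 1) scale. This gave limma p = 0.000248 and adjusted p = 0.252 over 13190 genes, the 13th smallest p of all.

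Mt1, the more abundant of the inducible pair, ran from 445 through a median of 484 to 578 FPKM after chronic cocaine and from 327 through 405 to 458 after saline. Only 1 cocaine library, at 445 FPKM, lay below the highest saline library. The means were 505 ± 56.6 and 402 ± 43.2 FPKM (SD, n = 6 and 6). The difference was 0.33 ± 0.08 (limma p = 0.00169, adjusted p = 0.429, rank 50). Mt3 ran from 582 through 619.7 to 707 FPKM after cocaine and from 375 through 515 to 586 after saline. Here too 5 of 6 cocaine libraries exceeded the highest saline library, and saline library 1 stood lowest at 375. The means were 628 ± 46.4 and 504 ± 74.3 FPKM (SD, n = 6 and 6). The difference was 0.33 ± 0.09 (limma p = 0.00322, adjusted p = 0.466, rank 89).

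So 0 of the 3 members passed at adjusted p under 0.05 in the chronic paradigm, where limma called 0% of 13190 genes. At unadjusted p under 0.05 all 3 lay higher, against 4.15% of all genes (548 genes). In 1 fit of all 8 groups, which takes in the wide spread of self-administration, that count was 1, with limma p = 0.00757 for Mt3, 0.106 for Mt2 and 0.190 for Mt1. The members were chosen with earlier results of these data known. These counts, and the ranks and the share without overlap given above, are therefore not independent evidence. Leaving out any 1 of the 12 libraries kept every difference positive and changed no call, with values from 0.27 to 0.37 for Mt1, 0.36 to 0.45 for Mt2 and 0.25 to 0.37 for Mt3. Quantile normalization, which forces 1 distribution on all libraries, lowered the difference of Mt3 to 0.22 (limma adjusted p = 0.738). The summed FPKM of the 3 genes was 1411 ± 127 in cocaine and 1115 ± 62.6 in saline libraries (SD, n = 6 each), with the lowest cocaine sum (1312) above the highest saline sum (1237). The sum is the same measurement as the 3 values and adds no further evidence.

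**Figure D2:**
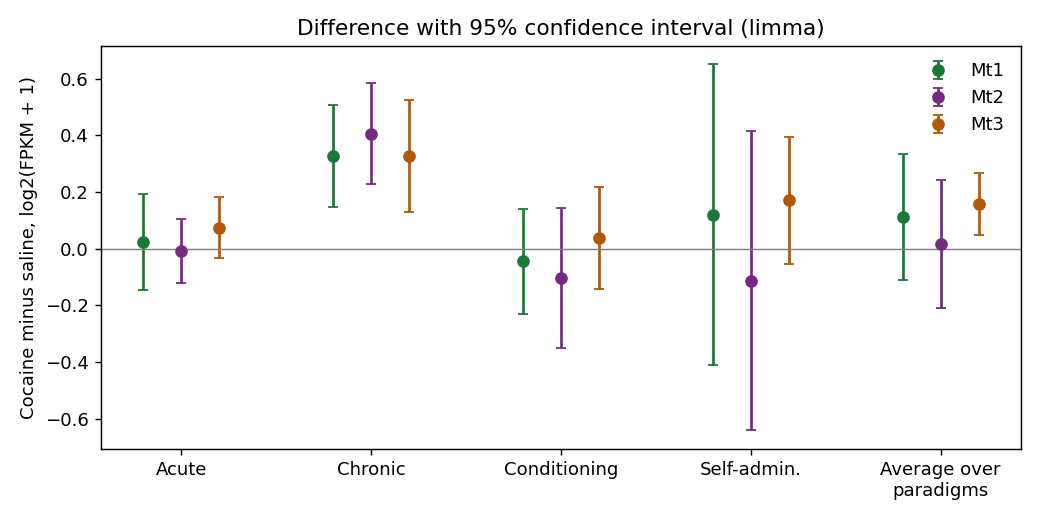
Difference between cocaine and saline on the log2(FPKM + 1) scale (y axis) for Mt1, Mt2 and Mt3 in each paradigm and averaged over them (x axis), with points for the limma estimate and bars for its 95% confidence interval. In the chronic paradigm the 3 estimates are 0.33, 0.41 and 0.33 with intervals above 0, before adjustment over all genes.

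In the other paradigms no member passed between cocaine and saline. After acute injection, the 5 cocaine libraries had Mt1 at 473, 472, 499, 486 and 379 FPKM in the order of their numbers 0 to 4, and the saline libraries ran from 403 through 452 to 504. Library 4 of the cocaine group was the low one, and the groups overlapped. Mt2 was 262, 242, 248, 269 and 219.6 FPKM in the same cocaine libraries, and from 232 through 250.1 to 261 in saline. Mt3 was 543, 561, 601, 567.7 and 641 in them, and from 521 through 555 to 577 in saline, so library 4 was lowest for Mt1 and Mt2 and highest for Mt3. The differences were 0.024 ± 0.078 for Mt1, -0.0084 ± 0.053 for Mt2 and 0.074 ± 0.049 for Mt3 (limma adjusted p from 0.985 to 0.996).

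In conditioning, Mt1 ran from 421 through 506 to 634 FPKM after cocaine and from 467 through 523 to 573 after saline. Mt2 ran from 233 through 259 to 354 and from 239 through 305 to 355. Mt3 ran from 499 through 642 to 742 and from 566 through 614 to 692. The groups overlapped for all 3 genes. The differences were -0.045 ± 0.086, -0.10 ± 0.11 and 0.038 ± 0.084 in that order (limma adjusted p from 0.812 to 0.914).

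In self-administration the libraries spread widely and cocaine and saline overlapped for all 3 genes. Mt1 ran from 216 through 425 to 864 FPKM after cocaine and from 218 through 305 to 828 after saline. Mt2 ran from 152 through 329.7 to 520.3 and from 184 through 291 to 720.2. Mt3 ran from 405 through 782 to 854 and from 503 through 679 to 949, with 13 of 15 cocaine libraries above the saline median. The differences were 0.12 ± 0.26 for Mt1, with a 95% interval from -0.41 to 0.65, -0.11 ± 0.26 for Mt2 (-0.64 to 0.42) and 0.17 ± 0.11 for Mt3 (-0.053 to 0.39). All had limma adjusted p = 0.999. Array weights of limma weight each library by how closely its values fit the group means over all genes, with no measure of RNA quality. With them the difference of Mt2 turned to 0.37 (limma adjusted p = 0.239) and that of Mt1 was 0.56 (adjusted p = 0.0894). Leaving out 1 library moved the unweighted difference of Mt2 between -0.22 and 0.031.

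At adjusted p under 0.05, 0 of 3 members passed in the acute, conditioning and self-administration paradigms, where limma likewise called 0%, 0% and 0% of genes. At unadjusted p under 0.05 it was also 0 of 3 in each, where 3.91%, 8.21% and 3.43% of all genes lay past that limit. With the paradigm as an additive term over all 59 libraries, the average difference was 0.16 ± 0.05 for Mt3 (limma p = 0.00525, adjusted p = 0.247), 0.11 ± 0.11 for Mt1 (adjusted p = 0.701) and 0.017 ± 0.11 for Mt2 (adjusted p = 0.967). No member passed, and 0.00758% of genes did. Without the chronic libraries the average for Mt3 was 0.11 ± 0.06 (limma p = 0.0750, adjusted p = 0.546).

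Whether the cocaine difference depended on the paradigm was tested directly. In the fit of all 8 groups no member's difference passed for any of the 6 pairs of paradigms (limma adjusted p between 0.9999 and 1, 0% of genes called in each). That fit shares 1 estimate of spread with the wide self-administration groups. A fit without them was added after the data were seen. In it the chronic minus conditioning difference was 0.51 ± 0.13 for Mt2 (limma p = 0.000481, adjusted p = 0.497), 0.37 ± 0.12 for Mt1 and 0.29 ± 0.12 for Mt3 (both adjusted p = 0.760). Here 0.00759% of genes passed. Acute minus chronic gave -0.41 ± 0.13 for Mt2, -0.30 ± 0.13 for Mt1 and -0.25 ± 0.12 for Mt3 (adjusted p = 0.9996 each), and 0% of genes passed.

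The 8 groups were ordered by level for each gene, and chronic saline was lowest for Mt2 and Mt3 and next to lowest for Mt1. By the mean of log2(FPKM + 1), Mt1 ran from self-administration saline (8.64) and chronic saline (8.65) through self-administration cocaine, acute saline, acute cocaine, chronic cocaine and conditioning cocaine to conditioning saline (9.04). No neighbours in that order differed by more than the larger of their SDs. Mt2 was lowest in chronic saline (7.71), followed by acute cocaine (7.96), acute saline, conditioning cocaine, chronic cocaine, conditioning saline, self-administration cocaine and self-administration saline (8.35). Only the step from chronic saline to acute cocaine was larger than the spread. Mt3 ran from chronic saline (8.97) through acute saline, acute cocaine, conditioning saline, chronic cocaine, conditioning cocaine and self-administration saline to self-administration cocaine (9.53), with no step beyond the spread.

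A moderated F test over the 4 saline groups passed for Mt3 (F = 4.99, limma adjusted p = 0.0102), as it did for 48.3% of genes. It did not pass for Mt2 (F = 2.98, adjusted p = 0.0765) or Mt1 (F = 1.30, adjusted p = 0.397), though Mt1 passed with array weights (F = 7.75, adjusted p = 0.000479). Self-administration saline exceeded the mean of the other saline groups by 0.25 ± 0.08 for Mt3 (adjusted p = 0.00997), while 31.7% of genes were called higher and 27% lower. The same contrast was 0.39 ± 0.17 for Mt2 (adjusted p = 0.0531, and 0.0372 under quantile normalization, where it passed) and -0.20 ± 0.17 for Mt1 (adjusted p = 0.323). With array weights, Mt1 was at -0.49 in this contrast and passed (limma adjusted p = 0.000289), and Mt3 was at 0.053 and did not (adjusted p = 0.469).

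Chronic and conditioning saline were then compared in the fit without self-administration libraries. This contrast was picked after the levels were seen, and it shares the chronic saline libraries with the chronic comparison of cocaine and saline. Mt2 was lower in chronic saline (-0.50 ± 0.09, limma adjusted p = 0.00329), and so was Mt1 (-0.39 ± 0.09, adjusted p = 0.0187). Mt3 was at -0.30 ± 0.08 (adjusted p = 0.0826), and 0.668% of genes passed. No conditioning saline library reached as low for Mt2 as the highest chronic saline library: the lowest conditioning value was 239 FPKM and the highest chronic one 233. The same was true of Mt1 (467 and 458 FPKM), while the groups overlapped for Mt3 (566 and 586 FPKM). Of all genes tested there, 0.736% had every chronic saline library below every conditioning saline library. The call for Mt1 ended without chronic saline library 5 (-0.33, adjusted p = 0.0528), without conditioning saline library 3 (-0.37, adjusted p = 0.0601) and under quantile normalization (-0.33, adjusted p = 0.101). It also ended with the transcript length index described further on as a covariate (-0.30, adjusted p = 0.146). The call for Mt2 held in these 4 fits (highest adjusted p = 0.0229). Mt3 passed without chronic saline library 4 (-0.34, adjusted p = 0.0461), with array weights (-0.25, adjusted p = 0.0395) and with the GC index as a covariate (-0.30, adjusted p = 0.0434). Chronic saline against acute saline was -0.25 ± 0.09 for Mt2, -0.18 ± 0.09 for Mt1 and -0.15 ± 0.08 for Mt3 (adjusted p = 0.995 each, 0.00759% of genes called). Conditioning saline against acute saline was 0.24 ± 0.09 for Mt2, 0.22 ± 0.09 for Mt1 and 0.15 ± 0.08 for Mt3 (limma adjusted p from 0.657 to 0.895). Acute saline thus lay between chronic and conditioning saline for all 3 genes. Chronic against acute cocaine was 0.16 ± 0.10 for Mt2, 0.13 ± 0.09 for Mt1 and 0.11 ± 0.09 for Mt3 (limma adjusted p from 0.597 to 0.691). Between the chronic and conditioning cocaine groups the differences were -0.020 ± 0.087 for Mt1, 0.012 ± 0.093 for Mt2 and -0.0074 ± 0.081 for Mt3 (adjusted p from 0.948 to 0.982), where 1.57% of genes passed. Of the 4 chronic and conditioning groups, chronic saline had the lowest mean for each of the 3 genes, and conditioning saline the highest for Mt1 and Mt2.

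Mt1 and Mt2 varied together from library to library in self-administration. Within its groups the SD of log2(FPKM + 1) was 0.64 for both genes, and they ranked 10 and 11 of 775 genes averaging 100 FPKM or more (median SD 0.16). Mt3 had an SD of 0.27 there (rank 116). In the other paradigms the SDs were 0.16, 0.17 and 0.15 for Mt1, Mt2 and Mt3 (ranks 164, 130 and 188 of 819). The self-administration libraries with much Mt1 were those with much Mt2: saline libraries 4, 2 and 1 had Mt1 at 828, 731 and 677 FPKM and Mt2 at 720.2, 552 and 594, while saline library 0 had 218 and 184. Mt3 in the same 4 libraries was 704, 949, 679 and 711.

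With group means removed, Mt1 and Mt2 had Pearson r = 0.947 and Spearman rho = 0.931 over the 24 self-administration libraries (permutation p = 1e-05 for each, the smallest that 100000 permutations can give, adjusted p = 0.00036 over 36 relations). Without the 2 libraries farthest from the median of Mt2, r was 0.933. In the chronic, conditioning and acute paradigms r was 0.80 (adjusted p = 0.0557, n = 12, permutation test), 0.71 (0.0943, n = 12) and 0.68 (0.154, n = 11), with rho of 0.74, 0.60 and 0.65 (adjusted p = 0.121, 0.232 and 0.157). Without the 2 farthest libraries these r were 0.68, 0.49 and 0.38. Mt3 had r = 0.49 with Mt1 and 0.42 with Mt2 in self-administration (permutation adjusted p = 0.0943 and 0.154), and these became 0.26 and 0.16 without the 2 farthest libraries, so they rest on those. Its relations with Mt1 and Mt2 did not pass in any other paradigm either (lowest adjusted p = 0.177, permutation test).

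**Figure D3:**
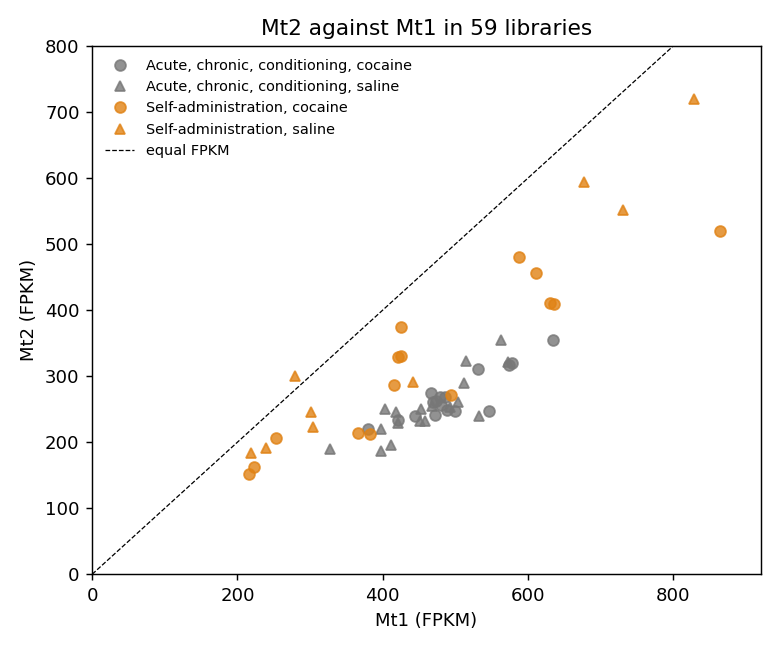
Mt2 against Mt1 in FPKM in each of the 59 libraries, self-administration in orange and the other paradigms in grey, with circles for cocaine, triangles for saline and a dashed line where both are equal. The ratio of Mt2 to Mt1 runs from 0.449 to 0.631 in the grey points and from 0.551 to 1.07 in the orange ones.

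The proportion of the pair was read from the same libraries. The ratio of Mt2 to Mt1 within a library was 0.544 ± 0.0443 over the 35 libraries of acute, chronic and conditioning paradigms (SD) and 0.748 ± 0.122 over the 24 of self-administration. In chronic libraries the ratio was 0.551 ± 0.0257 for cocaine, from 0.510 to 0.589, and 0.522 ± 0.0452 for saline, from 0.468 to 0.581 (SD, n = 6 each), so the groups overlapped. In self-administration it was 0.702 ± 0.103 after cocaine (n = 15) and 0.824 ± 0.117 after saline (n = 9). Mt3 over Mt1 was 1.25 ± 0.0907 and 1.28 ± 0.29 in chronic cocaine and saline, and 1.83 ± 0.739 and 1.79 ± 0.741 in self-administration.

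The base composition of what a library held moved with Mt1 and Mt2. A GC index, added after the data were seen, was taken for each library as the mean log2(FPKM + 1) of the tenth of genes with the most GC-rich transcripts minus that of the tenth with the least, centred over all libraries. It averaged -0.27 and -0.33 in self-administration cocaine and saline, and from 0.16 to 0.25 in the other 6 groups. The longest annotated transcripts of Mt1, Mt2 and Mt3, on which the index is defined, have 52.9%, 55.6% and 62.3% GC, at percentiles 65.8, 79.4 and 98.3 of the matched genes. The first annotated transcript of Mt1, which is shorter (549 against 1085 bases), has 58.1% GC. With group means removed, Mt1 had r = 0.79 and rho = 0.79 with the index in self-administration (n = 24, permutation p = 1e-05 for r, adjusted p = 0.00012 over 12 relations), and Mt2 had r = 0.71 and rho = 0.68 (adjusted p = 0.00048 for r). These r were 0.74 and 0.64 without the 2 farthest libraries. Mt3, the most GC-rich of the 3, had r = 0.24 (adjusted p = 0.386). On an index of transcript length, built in the same way as long minus short, it was Mt3 whose slope in self-administration passed (-1.37 ± 0.28, limma adjusted p = 0.00319), as did 12.8% of genes there. The slopes of Mt1 and Mt2 on it were -1.33 ± 0.90 and -0.97 ± 0.92 (adjusted p = 0.352 and 0.526). Of all tested genes, 43.8% had a slope on the index at limma adjusted p under 0.05 in self-administration, Mt1 and Mt2 among them.

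Outside self-administration, Mt1 in acute libraries had r = 0.92 with the index (permutation adjusted p = 0.0211, n = 11), with rho = 0.62 (adjusted p = 0.192) and r = 0.71 without the 2 farthest libraries. The other relations there did not pass (lowest adjusted p = 0.186, permutation test). In the chronic paradigm the index was 0.20 ± 0.10 for cocaine and 0.21 ± 0.16 for saline (SD, n = 6 each). With it as a covariate the chronic differences were 0.33, 0.41 and 0.33 for Mt1, Mt2 and Mt3, as without it. In self-administration the covariate moved the difference of Mt1 to -0.024 (limma adjusted p = 0.988). The index of transcript length was -0.15 ± 0.03 after chronic cocaine and -0.075 ± 0.05 after chronic saline, so short transcripts were relatively higher after cocaine. All 3 transcripts are short, at percentiles 6.11, 1.12 and 1.25 of length. With the length index as a covariate the chronic differences were 0.35 ± 0.12, 0.47 ± 0.12 and 0.35 ± 0.14 (limma adjusted p = 0.631 each).

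**Figure D4:**
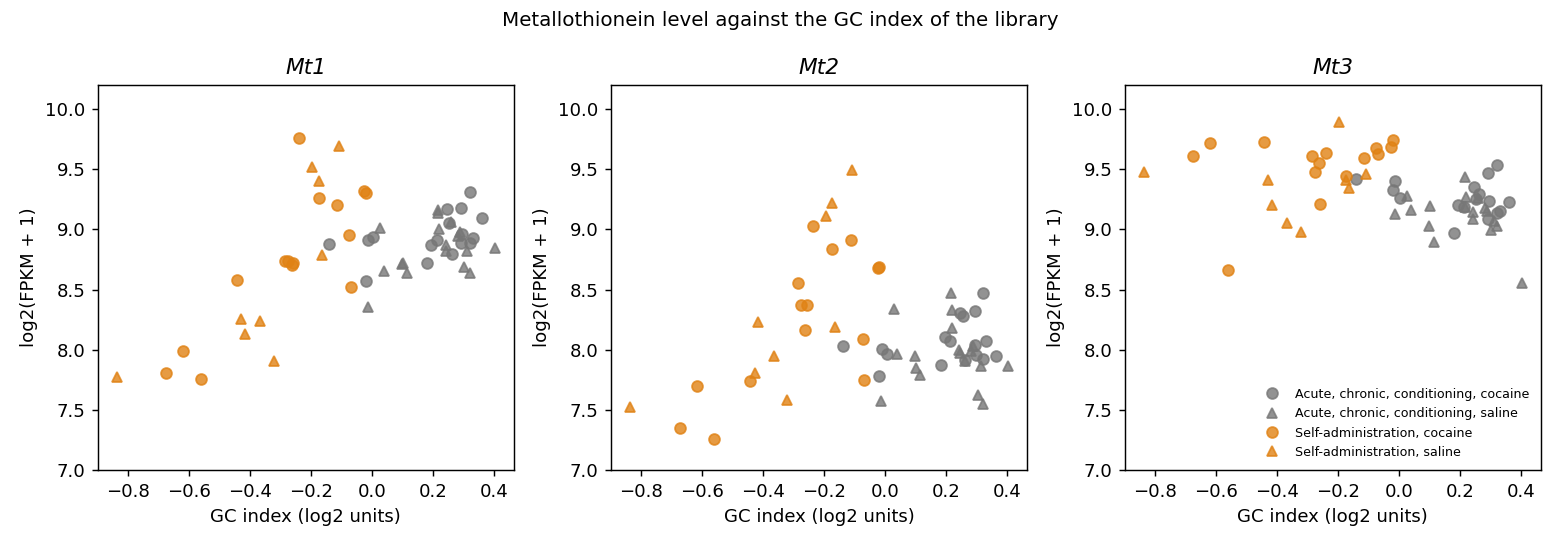
Level of Mt1, Mt2 and Mt3 on the log2(FPKM + 1) scale (y axis) against the GC index of the library (x axis, log2 units), self-administration in orange and the other paradigms in grey, circles for cocaine and triangles for saline. Within self-administration Mt1 and Mt2 climb with the index (r = 0.79 and 0.71 with group means removed) and Mt3 does so less (r = 0.24).

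Genes of the pathways that control metallothioneins were read beside them. The glucocorticoid list holds 18 genes induced by the receptor, without the metallothioneins, and it was drawn up with the chronic result known, so its direction is not independent evidence. In the chronic paradigm 18 of 18 had a positive difference (median 0.28, all genes 0.0024). At unadjusted p under 0.05, 14 lay higher, where 4.15% of all genes lay higher and 3.23% lower. At adjusted p under 0.05, 0 passed (lowest limma adjusted p = 0.106), as did 0% of all genes. Sgk1, a kinase of the stress hormone response, was at 134 ± 17.5 and 83.7 ± 15.1 FPKM (0.68 ± 0.12, adjusted p = 0.216). Tsc22d3, an anti-inflammatory target of the receptor, stood at 0.27 ± 0.07, Fkbp5, its co-chaperone, at 0.18 ± 0.07 and Per1, a clock gene, at 0.15 ± 0.06. The differences of Mt1, Mt2 and Mt3 lay within the range of this list, from 0.077 for Sgk3 to 0.68 for Sgk1. Whether the hormone had a part in them was not tested.

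The mean level of the list was 3.29 ± 0.08 in chronic saline, 3.34 ± 0.13 in acute saline and 3.41 ± 0.14 in acute cocaine. It was 3.60 ± 0.10 in chronic cocaine, 3.60 ± 0.14 in conditioning saline and 3.62 ± 0.09 in conditioning cocaine (SD, n = 6 each, 5 in acute cocaine). Chronic saline was thus within the larger SD of each acute group for this list, though not within its own SD of acute cocaine. Sgk1 was lower in chronic than in conditioning saline (-0.84 ± 0.13, limma adjusted p = 0.000249). Against acute saline, Sgk1 in chronic saline was at -0.43 ± 0.13 (limma adjusted p = 0.995). In self-administration the level of the list was 4.43 ± 0.28 for cocaine and 4.51 ± 0.24 for saline, the highest of the 8 groups. Fkbp5 in self-administration saline exceeded the other saline groups by 1.53 ± 0.09 (limma adjusted p = 1.23e-20). In the same contrast Mt1, Mt2 and Mt3 were at -0.20, 0.39 and 0.25, as given above, and Mt3 alone of them passed. Within paradigms and with group means removed, the list's level had r = 0.71 with Mt1 and 0.64 with Mt2 in chronic, 0.53 and 0.74 in conditioning, 0.40 and 0.49 in self-administration and -0.15 and 0.27 in acute libraries. None passed adjustment over the 36 relations (lowest adjusted p = 0.0557, permutation test). The r with Mt3 ran from 0.072 to 0.26.

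**Figure D5:**
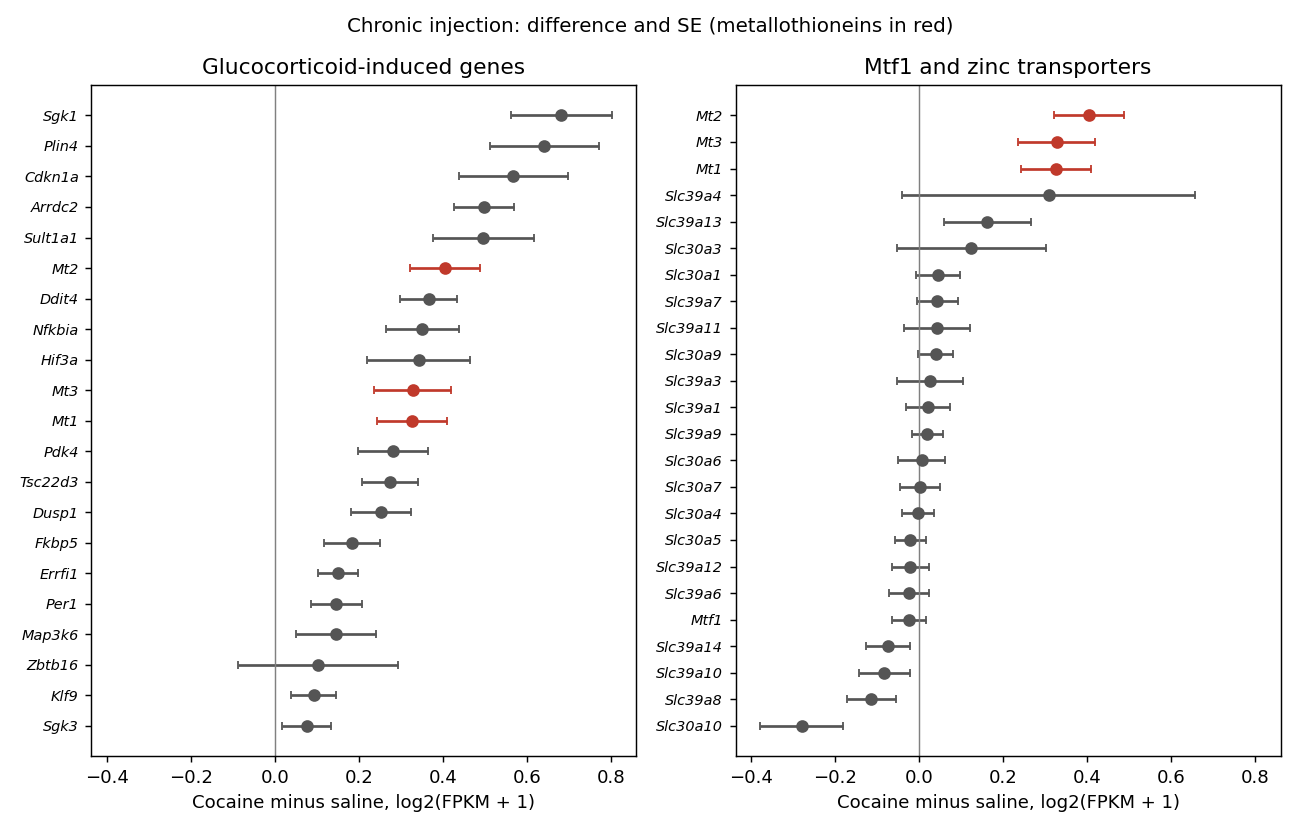
Cocaine minus saline in the chronic paradigm on the log2(FPKM + 1) scale (x axis; points for the limma estimate, bars for its SE) for 18 glucocorticoid-induced genes (left) and for Mtf1 with the tested zinc transporters (right), the 3 metallothioneins in red in both panels. The metallothioneins sit among the glucocorticoid-induced genes and, at 0.33 to 0.41, above all 21 genes of the zinc panel, whose median is 0.0072. The glucocorticoid list holds induced genes and was drawn up with the chronic result known. The zinc panel holds Mtf1 and transporters, of which only Slc30a1 is described here as zinc-induced, so the panels are unlike in kind. The cause of the metallothionein differences was not tested.

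No gene of zinc handling passed in the chronic paradigm, where limma called 0% of 13190 genes, and most differences were small. The list holds Mtf1 with 24 transporters of the Slc30 family, which export zinc from the cytosol, and the Slc39 family, which import it. Of its 25 genes 21 passed the filter on low values, 12 of these were positive, and the median was 0.0072. At unadjusted p under 0.05, 0 lay higher and 1 lower, where 4.15% of all genes lay higher and 3.23% lower. Mtf1 was at -0.023 ± 0.04 and the zinc-induced exporter Slc30a1 at 10.3 ± 0.701 and 9.97 ± 0.712 FPKM (0.045 ± 0.053). The synaptic vesicle transporter Slc30a3 stood at 0.13 ± 0.18 and the importer Slc39a10 at -0.082 ± 0.061. In the acute, conditioning and self-administration paradigms 10, 13 and 10 of the 21 were positive. In these paradigms 0 passed at adjusted p under 0.05, where limma called 0% of genes in each. Only Slc30a1 of the zinc list is described here as zinc-induced, so this list is unlike the glucocorticoid list of induced genes. Whether zinc had a part in the metallothionein differences was not tested.

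Of 18 oxidative stress genes 16 were positive in the chronic paradigm (median 0.072, all genes 0.0024). This list too was drawn up with earlier results of these data known. At unadjusted p under 0.05, 3 lay higher and 1 lower, against 4.15% and 3.23% of all genes. Adjusted p under 0.05 was reached by 0 of them and by 0% of all genes. Heme oxygenase Hmox1 was at 0.085 ± 0.079, the quinone reductase Nqo1 at 0.095 ± 0.066 and the glutathione synthesis enzyme Gclc at -0.023 ± 0.036. The cystine transporter Slc7a11 was the lower one (-0.43 ± 0.14, limma p = 0.00743, adjusted p = 0.548).

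Markers of cells known to make metallothioneins lay on both sides of 0 after chronic cocaine. Of all genes, 4.15% lay higher and 3.23% lower at unadjusted p under 0.05 in the chronic paradigm. Of 12 astrocyte markers 7 were positive (median 0.013), with 1 higher and 2 lower at that limit. Their mean level ran from 5.91 to 6.27 after cocaine and from 6.10 to 6.35 after saline. Gja1, the astrocyte gap junction protein, was at 78.5 ± 5.89 and 88.4 ± 4.98 FPKM (-0.17 ± 0.05), and Aqp4, the water channel of astrocyte endfeet, at -0.36 ± 0.15. The calcium-binding protein gene S100b was the higher one, at 0.28 ± 0.13. Glul, the glutamine synthetase of astrocytes, was at 0.089 ± 0.047, Aldoc at 0.090 ± 0.061 and Gfap at -0.57 ± 0.51. Of 10 endothelial and pericyte markers 8 were negative (median -0.15) and 4 lower at unadjusted p under 0.05, with the tight junction protein Cldn5 at -0.33 ± 0.08. Their mean level ran from 3.70 to 3.97 after cocaine and from 3.95 to 4.05 after saline. Of 7 choroid plexus and ependymal markers 3 passed the filter on low values, at levels of 2.01 to 2.23 and 2.19 to 2.28. Of the other marker lists, 7 of 8 dopamine neuron genes were positive (median 0.19) and 7 of 7 oligodendrocyte genes (0.035). So were 4 of 7 microglia genes (0.00066) and 3 of 4 red blood cell genes (0.19), with 0 of these lists past unadjusted p under 0.05. No marker of any of these lists passed at adjusted p under 0.05, where limma called 0% of all genes. The part of these cells in the differences of Mt1, Mt2 and Mt3 was not tested. The astrocyte list's level had no relation to Mt1, Mt2 or Mt3 that passed in any paradigm (lowest adjusted p = 0.287, permutation test).

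Genes whose levels were most like each member over the 59 libraries are named as a description. The measure was Pearson's r of log2(FPKM + 1) with group means removed, over 13186 genes, and these libraries share the GC and length shifts given above. Among the nearest to Mt1 were Mt2 (r = 0.93), Aspscr1 (0.86), Bckdha (0.85) and Tceb2 (0.83). Within the 35 libraries outside self-administration these r were 0.71, 0.53, 0.60 and 0.45. Nearest to Mt2 were Mt1 (0.93), Klf15 (0.81), Bckdha (0.79), Rplp0 (0.79) and Spsb3 (0.79), with 0.71, 0.66, 0.42, 0.53 and 0.26 outside self-administration. Nearest to Mt3 were Rpl18 (0.73), Snrpd2 (0.69), Bloc1s1 (0.68), Bola2 (0.68) and Tomm7 (0.66), with 0.46, 0.44, 0.25, 0.39 and 0.67. Mt1 and Mt2 were thus each other's nearest gene, and neither stood among the 5 nearest to Mt3.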

How the data were processed

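Per the labels' protocols, VTA RNA was isolated with the RNeasy mini kit, and a TruSeq RNA kit gave the libraries. The authors deposited 1 table of FPKM by gene symbol. Bowtie, Cuffnorm and mm10 are named per the submitters' processing notes. Their versions, the annotation, strand handling and scaling were not given in the sources used here. Each library's FPKM summed to between 398577 and 457508. Low values showed no common step of 1 read (at most 3.94% of low genes shared one), so read depth is unknown, and neither a count test nor counting intervals were possible. No pair of libraries was identical.

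Columns were mapped to groups by name, and libraries carry the column numbers, which start at 0. Genes averaging 1 FPKM or more over a comparison were tested on log2(FPKM + 1) by limma 3.58.1 in R 4.3.3 (trend and robust options, two-sided), with Benjamini-Hochberg adjustment over all tested genes and 0.05 as threshold. The script was checked on simulated data with changes larger than the chronic differences of the members, so the check does not bear on differences of that size. A fold change on this scale understates that of low genes. Relations used 100000 permutations within groups (Python 3.11.15, scipy 1.17.1). GC and length indices used the longest transcripts of 12708 of 13186 genes (96.4%), with 1270 genes at each end before symbols beginning with Mt were left out. Members and gene lists were chosen with earlier results of these data known. Named genes are the 3 members, Mt4, the 5 nearest genes of each member (1 of them is not reported here) and list genes picked by name. Genes named beyond these (Sgk3, Gm45774, S100b, Glul) were chosen after their values were seen.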

Additional observations from a re-analysis of the deposited data

Results flagged for a closer look

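Of 21 groups of 4 to 10 libraries tested for a library far from the rest (each member in each group but the largest), 2 were picked out, and chance alone picks out about 1 in 20. Mt1 was lowest in acute cocaine library 4, at 379 FPKM, with the gap to the next library at 0.777 of the group's range. The GC index of that library was -0.019, while the others of its group lay from 0.294 to 0.332. Whether base composition had a part in its low Mt1 was not tested. Mt3 was highest in self-administration saline library 2, at 949 FPKM, with the gap at 0.533 of the range.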

How the results depend on the processing

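No call of a member between cocaine and saline within a paradigm changed under another pseudocount (0.1), no filter, quantile normalization, median-of-ratios size factors, array weights, limma without trend and robust, 1 fit of all 8 groups, or the added GC and length covariates: none passed in any. Reversed or changed values were as follows, on the log2 scale for differences. Under quantile normalization the acute difference of Mt1 was -0.013, acute minus conditioning for Mt3 -0.033, and conditioning minus self-administration for Mt2 -0.026. Under it self-administration saline against the other saline groups passed for Mt2 (0.41, limma adjusted p = 0.0372) and chronic against conditioning saline did not for Mt1 (-0.33). With array weights the difference was 0.016 for acute Mt2, 0.041 for conditioning Mt1 and 0.37 for self-administration Mt2. They gave acute minus conditioning -0.0016 for Mt1, acute minus self-administration -0.36 for Mt2, chronic minus self-administration -0.29 for Mt1 and -0.088 for Mt3, and conditioning minus self-administration -0.38 for Mt2. In the saline groups they gave Mt1 an F of 7.75 (passed) and a self-administration contrast of -0.49 (passed), Mt3 a contrast of 0.053 (not passed), and Mt3 -0.25 between chronic and conditioning (passed). The GC index as a covariate gave -0.0094 for acute Mt1, -0.024 for self-administration Mt1 and -0.30 for Mt3 between chronic and conditioning saline (passed). The length index gave -0.076 for acute Mt1, 0.037 for conditioning Mt1 and -0.30 for Mt1 between chronic and conditioning saline (not passed). The average of Mt2 without the chronic paradigm was -0.085.

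Leaving out 1 library each in turn gave acute differences from -0.0089 to 0.094 for Mt1 and from -0.038 to 0.034 for Mt2. For conditioning they ran from -0.11 to 0.0098 for Mt1 and from -0.0091 to 0.11 for Mt3, and for self-administration Mt2 from -0.22 to 0.031. Between chronic and conditioning saline they ran from -0.43 to -0.33 for Mt1 and from -0.34 to -0.22 for Mt3. Quantile normalization turned the Pearson r of Mt3 in acute libraries to 0.34 with Mt1, 0.27 with Mt2 and 0.030 with the astrocyte list. With that list it gave 0.024 for Mt1 and 0.12 for Mt2 in chronic, and for Mt3 0.12 in conditioning and -0.16 in self-administration. It brought Mt1 with Mt2 in chronic libraries to 0.85 (permutation adjusted p = 0.0182, passed). Genes called across the table were 0 to 2 per paradigm in all fits, and 0 to 41 for the average (41 with array weights, 0 without the acute paradigm, 2 without self-administration). The cause of these changes was not tested.

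No paired analysis was possible because the columns are numbered from 0 and the labels from 1, with nothing that ties one numbering to the other. Depth is unknown, so how far it limits these values was not tested. The wide spread of self-administration limits that paradigm to large differences.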
